A study of Rattus norvegicus with 12 samples.

Results

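The Hedgehog genes examined here were the ligands Shh, Dhh and Ihh, the receptor Ptch1, the signal transducer Smo, the transcription factors Gli1, Gli2 and Gli3, and the decoy receptor Hhip. Members were the gene probes on the array that carried 1 of these 9 names. There were 11 such probes for 8 of the genes, out of 30367 probes for 26214 gene names in all. No probe carried the name Hhip, so this target was not analysed here. The genes were selected on the measured difference of a Dhh probe between exposed and control cultures in these same data. The Dhh differences are therefore a description with no test.

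Gene expression was measured with 1-colour Agilent oligonucleotide arrays in neuron-enriched cultures of cerebellum from Sprague-Dawley rats at postnatal day 1. The 6 control cultures received the solvent DMSO at 0.001%, and the 6 exposed cultures received 1 µM acetamiprid (ACE), a neonicotinoid insecticide dissolved in DMSO, from day 2 until 16 days in vitro (DIV). By the methods, every experiment used a single lot of cells pooled from littermates, and its control and ACE cultures shared that lot. Replicate numbers therefore paired the arrays in the comparison of control versus ACE (CvA).

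In the Hedgehog pathway, a secreted ligand binds Ptch1 and thereby frees Smo, which acts in the primary cilium and switches the GLI factors from repression to activation. Ptch1, Gli1 and Hhip are themselves transcribed in response, so that their RNA is commonly read as a sign of pathway activity. In the developing cerebellum, Shh from Purkinje cells drives the division of granule cell progenitors, whereas Dhh is best known from Schwann cells, endothelial cells and the testis, and Ihh from growing cartilage.

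All values below are log2 intensities after quantile normalisation unless a fold is stated. A signal was called well above background by the extraction software when it exceeded the local background by a set margin. Where the background-subtracted signal did not rise above noise, the software had replaced it by a small positive number, called here a surrogate value, which is a floor and not a measurement. Between 75.4% and 91.0% of the gene spots of an array were well above background, and between 3.22% and 15.2% held a surrogate value. As for the cells, 8 of 9 granule cell, 6 of 7 Purkinje cell and 12 of 12 astrocyte marker probes were well above background on all 12 arrays. Each replicate pair lay on 1 slide, always with control at place 1 and ACE at place 3, so place and exposure cannot be told apart. Pairs 4, 5 and 6 shared a scan day, and the other pairs had a day each. Probes entered the test if their value exceeded the array's 20th percentile in 7 or more arrays, which 23796 of all probes and 9 of the 11 Hedgehog probes did. The Gli1 probe and an Ihh probe did not.

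Both Dhh probes lie on the minus strand of chromosome 7 in the rn4 build, 653 bases apart, and they are the pair on which the comparison turns. The probe with the difference, A_44_P639832 (chr7:137667264-137667323), is the one nearer the 3′ side of the transcript. The other, A_64_P009132 (chr7:137667977-137668036), holds a reading frame of 19 codons with no stop before the stop codon at its end, which is shown in capitals.
Dhh A_64_P009132: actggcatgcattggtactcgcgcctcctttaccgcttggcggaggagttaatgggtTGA

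The ligands are related proteins, so a probe for one could in principle bind the RNA of another. Among the 55 pairs of Hedgehog probes, the longest shared run was 11 bases, between the Shh probe A_64_P119002 (chr4:2208969-2209028) and the Ihh probe A_64_P065081 (chr9:74288362-74288421), and it is shown in capitals. All other pairs shared 8 bases or fewer. Probes were compared only with each other and not with whole transcripts, so binding across ligands was not tested.
Shh A_64_P119002: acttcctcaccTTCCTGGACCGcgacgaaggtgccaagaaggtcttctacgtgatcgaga
Ihh A_64_P065081: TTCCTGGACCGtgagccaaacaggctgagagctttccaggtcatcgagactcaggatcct

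The probes for the 2 transcriptional targets that were set against Dhh are given because the comparison rests on them. They are Ptch1 A_64_P147263 (chr17:7142363-7142422, plus strand) and Gli1 A_44_P1054991 (chr7:67288638-67288697, minus strand).
Ptch1 A_64_P147263: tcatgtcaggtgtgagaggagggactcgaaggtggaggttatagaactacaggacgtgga
Gli1 A_44_P1054991: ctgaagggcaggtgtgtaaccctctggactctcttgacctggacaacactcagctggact

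Dhh A_44_P639832 was higher in the ACE culture of every pair by a mean of 1.18 ± 1.34 (SD, n = 6 pairs), a value that includes floor values on the control side. In the control cultures it had a lowest value of 2.47, a median of 4.27 and a highest value of 5.04. In the ACE cultures the lowest value was 4.30, the median 4.96 and the highest 6.11. The groups overlapped, and the mean was carried by pairs 5 and 6.

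The differences of this probe from pair 1 to pair 6 were 0.38, 0.14, 0.75, 0.38, 3.64 and 1.80. The control arrays of pairs 5 and 6, at 2.47 and 2.50, held surrogate values. Over the 4 pairs in which both arrays were measured, the mean difference was 0.41. The signal was well above background on 3 control and 5 ACE arrays. Within the shared scan day of pairs 4, 5 and 6 the mean difference was 1.94, and in the pairs scanned on separate days it was 0.43. Without pair 5 the mean was 0.69, and with the normexp background correction and an offset of 50 it was 0.25. The same setting also took the Shh difference from 0.42 to 0.19, where no value was a surrogate.

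The other Dhh probe, A_64_P009132, showed no such mean difference. Its lowest, median and highest values were 3.34, 4.13 and 4.88 in the control cultures, and 3.24, 4.18 and 4.88 in the ACE cultures, so the groups lay on top of each other. The mean difference was -0.031 ± 0.15 (SD, n = 6 pairs), with 3 pairs higher and 3 lower. This probe had no surrogate value on any array and was well above background on 3 control and 4 ACE arrays. In pair 5, where A_44_P639832 differed by 3.64, this probe differed by 0.026. The signs of the pair differences of the 2 probes matched in 3 of 6 pairs, and across the 6 pairs the differences had a Pearson r of 0.51, given as a description.

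**Figure D1:**
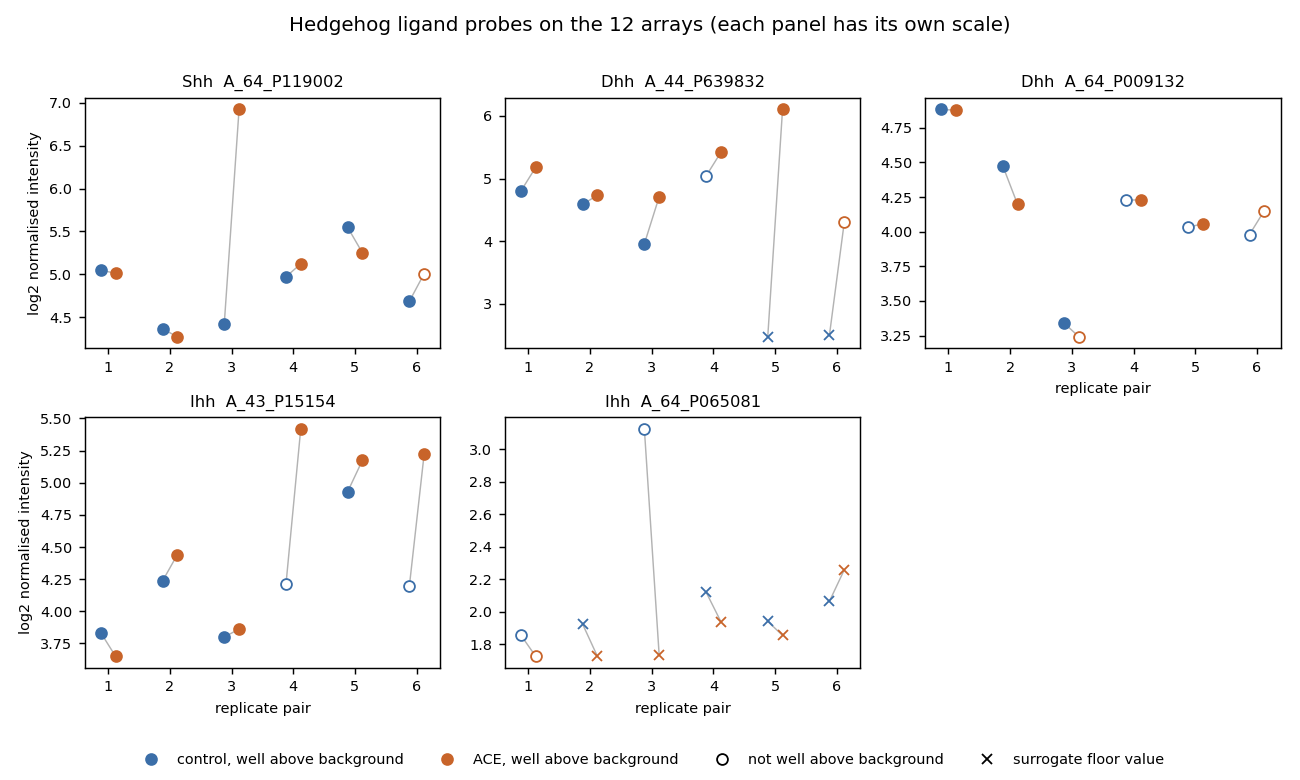
Log2 normalised intensity (vertical axis) of the 5 ligand probes in each replicate pair (horizontal axis), control in blue and ACE in orange, joined within a pair. Filled circles were well above background, open circles were not, and crosses are surrogate floor values. The crosses of control 5 and 6 set the steepest lines of Dhh A_44_P639832, whereas Dhh A_64_P009132 stayed within 0.28 in every pair.

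Of the cell types known for Dhh, endothelial and Schwann cell markers were read on the same arrays. The mean over the 5 endothelial probes tested lay between 6.33 and 7.51 in the control cultures and between 6.29 and 6.69 in the ACE cultures. In pair 5 the endothelial mean differed by -1.23, carried by the Flt1 probe at -4.93, while the other 4 probes differed by -0.60 to 0.19. Of the 5 probes, 1 (Cdh5, lower in ACE, limma adjusted p = 0.143) had an unadjusted p under 0.05, or 20%, beside 16.6% of all probes. The mean over 7 Schwann cell probes lay between 5.68 and 6.30 in control and between 5.73 and 6.15 in ACE. Within pairs this mean differed by -0.23 to 0.27, with the highest difference in pair 5. Of these 7 probes, 0 were higher and 1 lower at an unadjusted limma p under 0.05, or 14.3%. Each of the 6 endothelial and 9 Schwann cell probes was well above background on at least 1 array, but only 4 of each list on all 12. The part of these cells in the Dhh values was not tested, and in bulk RNA fewer cells of a type and less RNA per cell cannot be told apart.

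For the other members, differences were tested in a limma fit over all probes with the replicate number as a block. Among the 7 probes tested, 0 passed an adjusted p of 0.05, as did 0 of all 23796 probes (0%), where the lowest adjusted p was 0.141. At an unadjusted p of 0.05, limma called 0 of the 7, beside 16.6% of all probes (6.9% upregulated, 9.73% downregulated). In 8 of the 15 alternative settings, 1 or 2 of the 7 reached the unadjusted threshold, beside 12.9% to 18.1% of all probes in those settings. These were Ihh and Smo with the replicate as a random block, with normexp and in pairs 4 to 6, Smo with the 75th percentile shift and without pair 3, and Ihh without pair 1. Ptch1 and Gli2 A_44_P306728 did so without pair 5, and the same Gli2 probe with surrogate values set to missing. None of the 7 went the same way in all 6 pairs, beside 11.6% of all probes, and none changed by 1.5-fold, beside 1.72%.

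Shh, the mitogen that Purkinje cells give to granule cell progenitors, differed by 0.42 ± 0.37 (SE, n = 6 pairs), with a limma adjusted p of 0.588. Its lowest, median and highest values were 4.37, 4.83 and 5.55 in control, and 4.27, 5.07 and 6.93 in ACE. The value of 6.93 stood alone: it came from ACE 3, whose control partner was at 4.42, and the 5 other ACE values reached 5.25 at most. Without pair 3 the difference was 0.0085, so that 1 array set the mean. The signal was well above background on all 6 control and 5 ACE arrays. The mean over 7 Purkinje cell probes differed by 0.042 in pair 3, and over all arrays it lay between 9.97 and 10.4 in control and between 9.76 and 10.5 in ACE.

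Ihh, the ligand of growth plate cartilage, was read by 2 probes. A_43_P15154 (chr9:74287130-74287189) had lowest, median and highest values of 3.80, 4.20 and 4.93 in control, and of 3.65, 4.81 and 5.42 in ACE. The difference was 0.43 ± 0.20 (SE), with a 95% interval from -0.056 to 0.91 and a limma adjusted p of 0.346. It was higher in 5 of 6 pairs, most in pairs 4 and 6, by 1.21 and 1.03, whose control arrays were not well above background. It was 0.27 without pair 4. With normexp the difference was 0.14 and its SE also fell, to 0.056, with a limma adjusted p of 0.254. Across the shared scan day of pairs 4, 5 and 6 the mean difference was 0.83, and across the pairs scanned on separate days it was 0.028. The second probe, A_64_P065081, was not well above background on any of the 12 arrays and held surrogate values on 4 control and 5 ACE arrays, so its differences are between values at the floor and are not given. The mean over 6 cartilage probes lay between 5.44 and 6.61 in control and between 5.58 and 6.62 in ACE. Its largest difference within a pair was 0.49, in pair 6, where the Col2a1 probe differed by 2.16. Of these 6 probes, 1 was higher and 1 lower, both for Col9a1, at an unadjusted limma p under 0.05, or 33.3%, beside 16.6% of all probes, and 0 passed the adjusted threshold. The part of cartilage cells in the Ihh values was not tested.

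Ptch1, the receptor and a transcriptional target of the pathway, was well above background on all 12 arrays. Its lowest, median and highest values were 6.66, 7.73 and 8.33 in the control cultures, and 6.68, 7.98 and 8.32 in the ACE cultures, an almost complete overlap. The difference was 0.11 ± 0.059 (SE), with a 95% interval from -0.033 to 0.25 and a limma adjusted p of 0.399. It was higher in 5 of 6 pairs, most in pair 4 at 0.38, and lower by 0.088 in pair 5. Without pair 4 the difference was 0.055. The spread between lots was wider than any of these: the mean of a pair ran from 6.67 in lot 3 to 8.29 in lot 5, a range of 1.62.

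Smo, the membrane protein that Ptch1 holds in check, was read by A_64_P077367 (chr4:56645512-56645571) and was well above background on all 12 arrays. In control it had lowest, median and highest values of 9.85, 10.2 and 10.6, against 9.64, 10.1 and 10.5 in ACE. The difference of -0.14 ± 0.058 (SE) had a 95% interval from -0.28 to 0.0013 and a limma adjusted p of 0.304. Smo was lower in 5 of 6 pairs, by amounts between 0.11 and 0.27, and higher in pair 3 by 0.15. Without pair 3 the difference was -0.20, with a limma adjusted p of 0.193.

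Gli1, the activator whose own gene responds to the pathway, was near the floor of these arrays. It was well above background only in pair 1, at 3.78 in control and 3.87 in ACE. Control 4, 5 and 6 and ACE 4 and 6 held surrogate values. The lowest, median and highest values were 2.32, 2.72 and 3.78 in control, and 2.30, 2.96 and 3.87 in ACE. In the 3 pairs with no surrogate value, the differences were 0.097, 0.061 and 0.34. The probe failed the filter and received no test. Pair 1 was also the pair with the brightest arrays, on which 91.0% and 90.4% of spots were well above background, and the relation of the Gli1 values to array brightness was not tested.

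Gli2, the main activator among the GLI factors, had 2 probes with different readings. A_44_P868890 (chr13:31551285-31551344) was well above background on all arrays. Its lowest, median and highest values were 8.65, 9.28 and 9.58 in control, and 8.74, 9.28 and 9.49 in ACE. The difference was 0.033 ± 0.045 (SE), with a 95% interval from -0.076 to 0.14 and a limma adjusted p of 0.732. It was 0.0032 without pair 5 and 0.066 without pair 3. Lots 5 and 6, at pair means of 8.74 and 8.71, lay below the other lots, which were at 9.25 or more. A_44_P306728 (chr13:31553491-31553550) was well above background only in pairs 1, 2 and 3, held a surrogate value in control 5 and in ACE 6, and differed by -0.12 ± 0.27 (SE), with a limma adjusted p of 0.839. Leaving out pair 5 moved it to -0.40, and leaving out pair 6 to 0.027.

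Gli3, the main repressor, was read by A_64_P080632 (chr17:57594126-57594185), well above background on all arrays. Its lowest, median and highest values were 6.59, 6.92 and 7.09 in control, and 6.34, 6.95 and 7.47 in ACE. The groups overlapped. The difference was 0.085 ± 0.088 (SE), with a 95% interval from -0.13 to 0.30 and a limma adjusted p of 0.649. It was higher in 5 of 6 pairs and lower by 0.28 in pair 1. The difference was 0.015 without pair 4 and 0.16 without pair 1.

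**Figure D2:**
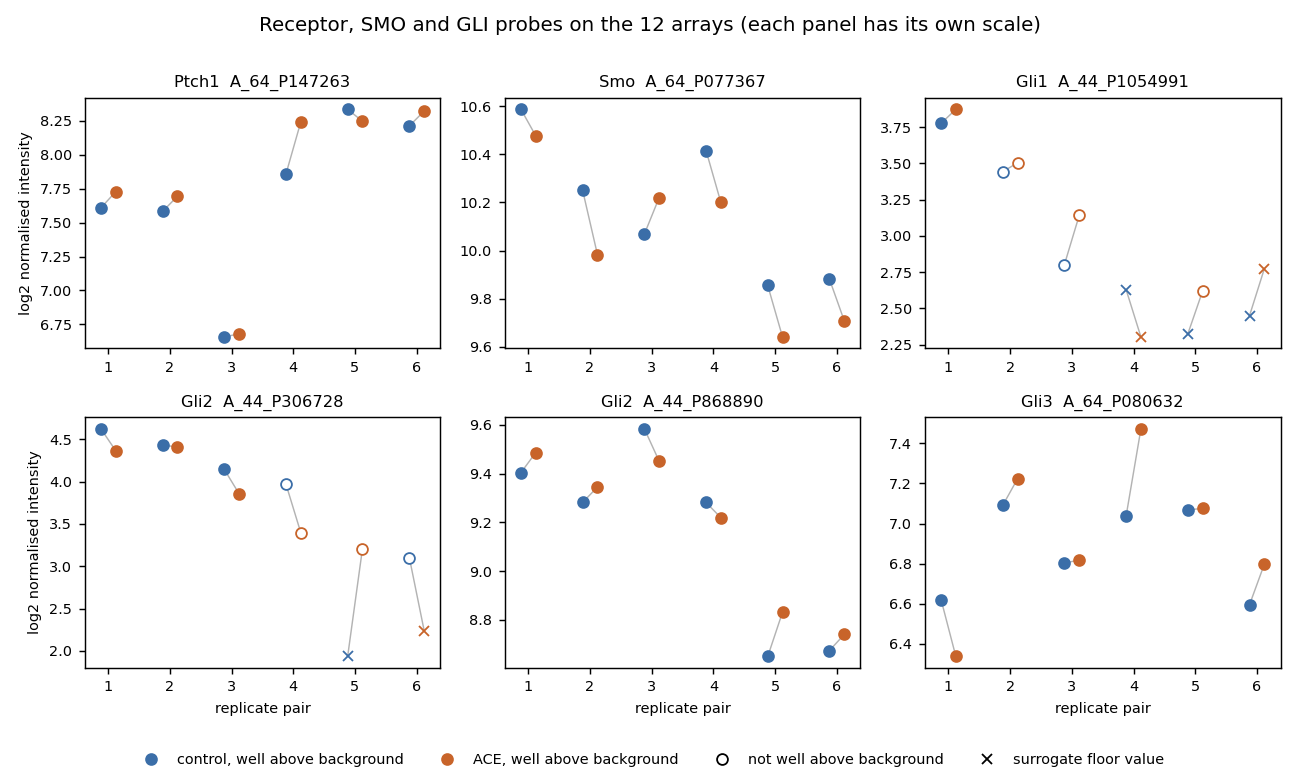
Log2 normalised intensity (vertical axis) of the Ptch1, Smo, Gli1, Gli2 and Gli3 probes by replicate pair (horizontal axis), with control in blue and ACE in orange. Filled circles were well above background, open circles were not, and crosses are surrogate floor values. Ptch1 ran from 6.66 to 8.33 across control lots, while its largest difference within a pair was 0.38.

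Set side by side, the probes differed in how far their pairs spread. Of all probes tested, 84.3% were well above background on every array. The 4 Hedgehog probes of this kind (Ptch1, Smo, Gli2 A_44_P868890 and Gli3) had SDs over pairs of 0.16, 0.15, 0.11 and 0.24. The median SD of all probes tested was 0.13. Dhh A_44_P639832, Shh and Gli2 A_44_P306728 had SDs of 1.34, 1.04 and 0.74, and Dhh A_64_P009132 one of 0.15. Surrogate values occurred in 2 of the 9 Hedgehog probes that passed the filter (Dhh A_44_P639832 and Gli2 A_44_P306728), beside 3.22% of all probes that passed it.

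**Figure D3:**
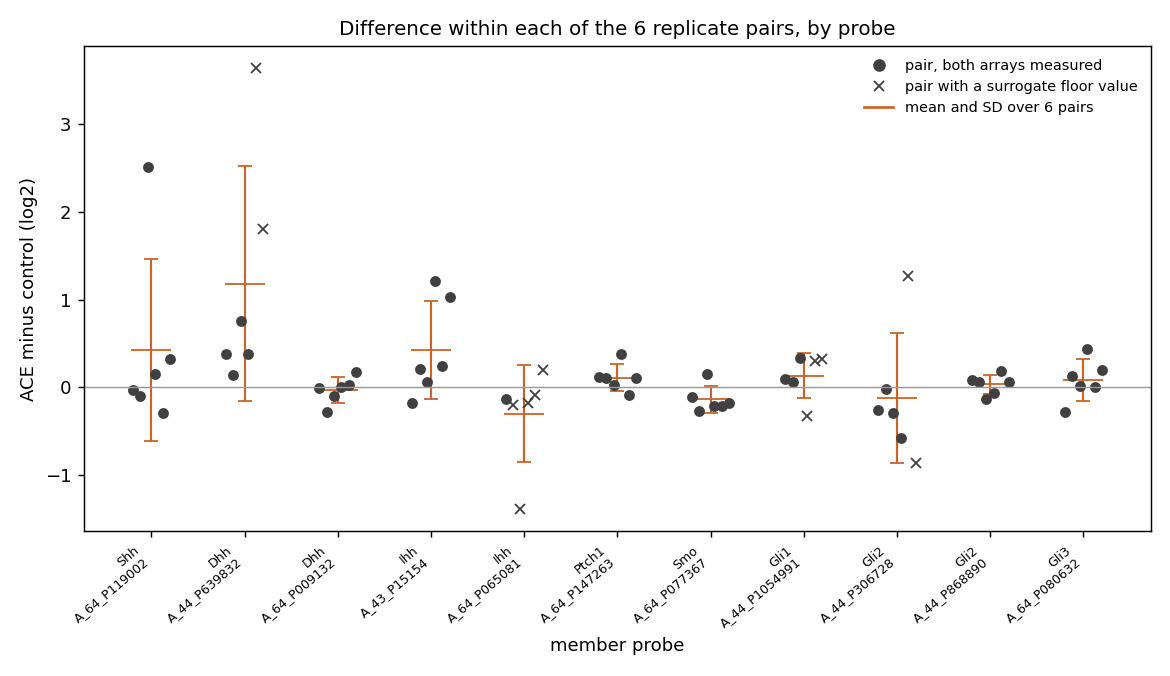
ACE minus control in log2 (vertical axis) in each of the 6 replicate pairs for the 11 Hedgehog probes (horizontal axis), with the mean and SD over pairs in orange. Crosses mark pairs in which at least 1 array held a surrogate value. The highest points of Dhh A_44_P639832, at 3.64 and 1.80, are both crosses, and the highest Shh point, at 2.51, is a measured value.

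The next comparison set the pair differences of Dhh A_44_P639832 beside those of the targets. It is a description with no test, because the genes were selected on this Dhh difference and because floor values enter on both sides. Over the 6 pairs, the Dhh and Gli1 differences had a Pearson r of 0.53 and a Spearman rho of 0.71. For Dhh and Ptch1, r was -0.65 and rho was -0.77. Over the 12 deviations of the arrays from their group means, r was 0.32 with Gli1 and -0.18 with Ptch1, and with normexp r with Gli1 was 0.14. Both Dhh pairs at the high end rest on surrogate control values, and the Gli1 differences of pairs 4, 5 and 6 each include at least 1 surrogate value.

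In pair 5, with the largest Dhh difference, Ptch1 was lower in ACE by 0.088 and Gli1 higher by 0.30, against a surrogate control value. In pair 4, where Dhh differed by 0.38, Ptch1 had its largest difference of 0.38 while Gli1 differed by -0.33, between 2 surrogate values. Leaving out pairs 5 and 6, the farthest from the median Dhh difference, r was 0.51 with Gli1 and -0.33 with Ptch1. With arrays scaled by their 75th percentile instead of quantiles, r with Gli1 turned to -0.099. The shared scan day held 3 pairs, too few for a value of its own.

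**Figure D4:**
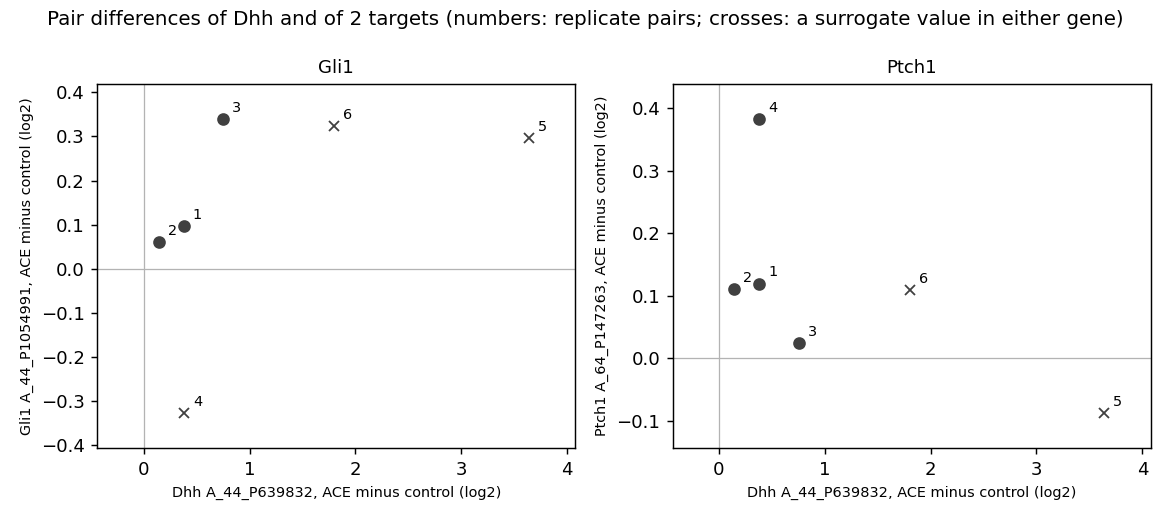
Differences of Gli1 (left) and Ptch1 (right) in log2 (vertical axes) against those of Dhh A_44_P639832 in log2 (horizontal axes), 1 point per replicate pair with its number. Crosses mark pairs with a surrogate value in either gene. Pair 5 lies at 3.64 for Dhh, with Gli1 at 0.30 and Ptch1 at -0.088.

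Around the members, 5 lists of other pathway genes held 46 genes, of which 43 had a probe and 47 of 50 probes passed the filter. With limma, 0 of the 47 passed an adjusted p of 0.05. At an unadjusted p of 0.05, 3 were higher and 1 lower in ACE, or 8.51%, beside 16.6% of all probes. Their median difference was 0.014, beside -0.0050 for all probes.

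Among receptors and co-receptors, 0 of 5 probes tested reached an unadjusted limma p of 0.05, and the median difference was -0.050. The Gas1 probe, named here after its values were seen, was lower in all 6 pairs, by a mean of -0.050 (limma adjusted p = 0.402). Gas1 is a co-receptor that helps ligand reach Ptch1. Boc had no probe of that name. For ligand processing and release, 0 of 6 probes reached that threshold, with differences from -0.27 to 0.25.

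Negative regulators and GLI kinases had 13 probes, of which 1 was higher at an unadjusted p of 0.05 and 0 were lower. It was a probe of Prkaca, the catalytic subunit of the kinase that marks GLI proteins for processing, at 0.16 ± 0.067 (SE, limma adjusted p = 0.297). The second Prkaca probe differed by 0.056.

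Genes of the cilium and of SMO signalling had 13 probes, 1 higher and 1 lower at the unadjusted threshold. Kif7, a kinesin of the cilium tip that sets GLI activity, was lower in all 6 pairs, by -0.34 ± 0.089 (SE, limma adjusted p = 0.180). Its pair differences ran from -0.72 to -0.12, and pair 1 stood above the other pairs in both groups. Tulp3, which carries receptors into the cilium, had 1 probe higher in all 6 pairs by 0.12 ± 0.035 (SE, limma adjusted p = 0.199), while its other probe was higher in 3 pairs and differed by 0.056.

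Targets other than Ptch1 and Gli1 had 10 probes, with 1 higher and 0 lower. A Foxm1 probe, for a factor of the G2/M transition, was higher in every pair, by 0.13 to 0.19, without passing the adjusted threshold (0.15 ± 0.022, SE, limma adjusted p = 0.141). Its second probe was higher in 4 of 6 pairs and differed by 0.13. The targets that drive progenitor division, Mycn, Ccnd1 and Ccnd2, also named after their values were seen, differed by -0.11, 0.0089 and 0.044, with limma adjusted p of 0.433, 0.929 and 0.649. On the same arrays, the mean over 9 cycling cell probes lay between 9.47 and 9.91 in control and between 9.43 and 9.91 in ACE. Within pairs this mean differed by -0.098 to 0.14. Of the 9 probes, 1 was higher and 0 lower at an unadjusted limma p under 0.05, or 11.1%, beside 16.6% of all probes.

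**Figure D5:**
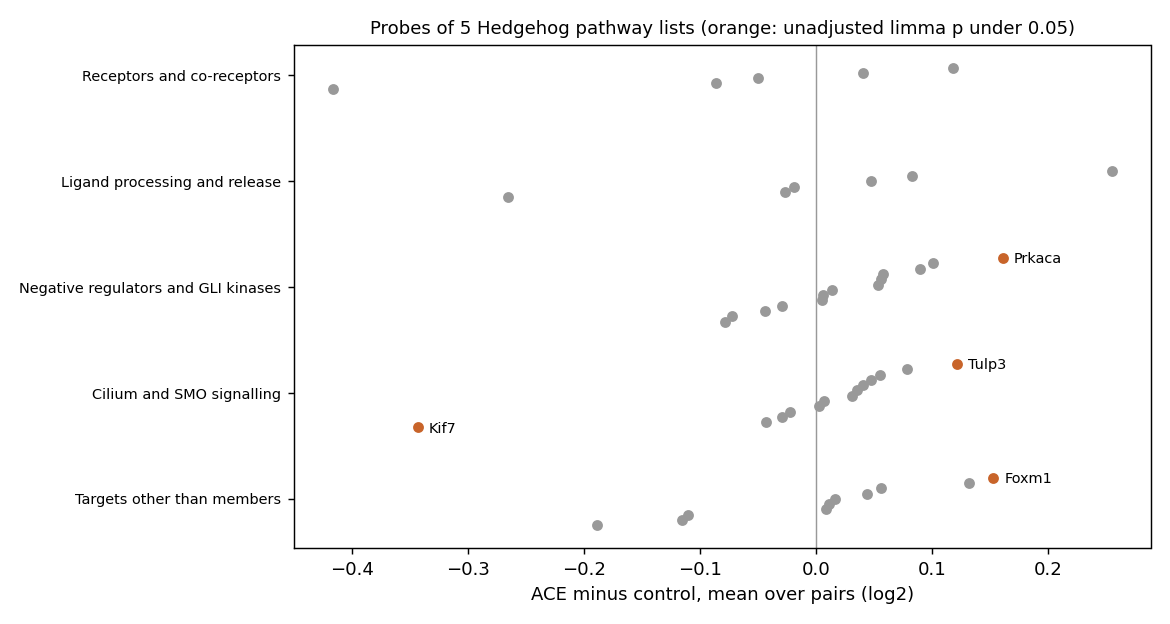
Mean ACE minus control in log2 (horizontal axis) of each probe tested in 5 lists of pathway genes (vertical axis), 1 point per probe. Orange points with a name had an unadjusted limma p under 0.05. All but 1 of the 4 named points are higher in ACE, and none passed the threshold after adjustment.

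The 3 probes whose values over the 12 arrays were most like those of Dhh A_44_P639832, out of 16770 named probes searched, were for Cnksr1 (r = 0.88), Lbx1 (r = 0.83) and Pex16 (r = 0.82). For Gli1 they were Tgfb2 (r = 0.97), Bmx (r = 0.97) and Ntan1 (r = 0.96). These are descriptions over 12 arrays that share lots, slides and brightness. The Tgfb2 probe ran from 9.87 to 10.9 in control and from 10.0 to 10.9 in ACE, and its mean difference was 0.070. The Cnksr1 and Lbx1 probes, like Dhh, were well above background on 8 of the arrays. They held 0 and 1 surrogate values, against 2 for Dhh.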

How the data were processed

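The members and gene lists were chosen with earlier results of these data known. Per the file headers, the authors extracted the Cy3 intensity of each spot with Agilent Feature Extraction, of which replicate 1 used version 11.0.1.1 and 10 arrays version 11.5.1.1. The software subtracted background and did not scale between arrays, but its processed intensities also differed from the background-subtracted ones. In control 1 they were 73.6 against 62.2 for Dhh A_44_P639832 and 77.3 against 91.6 for Dhh A_64_P009132. The step behind this difference was not examined here. The authors also deposited log2 values, quantile normalised and centred on each probe's median per their methods, which correlated with the values computed here at 0.997 or more per array and served as an alternative.

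From the processed intensities, control spots were left out, outlier spots were set to missing (447 probe values), and log2 values were quantile normalised over the 12 arrays and averaged per probe. Probes were tested with limma 3.58.1 in R 4.3.3 with the replicate number as a fixed block and Benjamini-Hochberg adjustment, and the fit was tested on simulated data. Paired arrays deviated together: deviations from the group mean correlated between 0.45 and 0.91 for equal numbers and between -0.44 and 0.39 for different ones. Probe coordinates and sequences are those of the files, on rn4; exon and UTR annotation of that build was not used here. Genes were matched by name in the original or the newer annotation of replicate 3. Named genes were all member probes, up to 4 probes per pathway list with the smallest unadjusted p under 0.05, and the 3 probes most like Dhh and Gli1. Cdh5, Flt1, Col2a1, Col9a1, Gas1, Mycn, Ccnd1 and Ccnd2 fall outside this rule and were chosen after their values were seen. Array number limits the precision. The authors' fold changes and the nicotine and imidacloprid cultures were not used here.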

Additional observations from a re-analysis of the deposited data

Results flagged for a closer look

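For the 11 member probes, the 4 pathway list probes named by rule and the 6 probes most like Dhh and Gli1, each group of 6 arrays was searched for 1 array far from the others, by Dixon's test at the 95% level. In 42 groups searched, 4 arrays stood out, where chance gives about 1 in 20. Shh in ACE 3 was at 6.93 while the other ACE arrays lay between 4.27 and 5.25. Ihh A_64_P065081 in control 3 was at 3.12, against 1.86 to 2.12 on the other control arrays, and none of these was well above background. Kif7 stood apart in pair 1 of both groups, at 6.78 in control (others 5.29 to 5.80) and 6.61 in ACE (others 4.93 to 5.52).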

How the results depend on the processing

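Of 163 recomputed differences of the 11 Hedgehog probes, 158 kept their sign and 5 did not. Gli2 A_44_P306728 ranged from -0.40 to 0.027 with 1 pair left out and turned to 0.027 without replicate 6. Gli2 A_44_P868890 turned to -0.00095 with normexp, Gli1 to -0.070 with the 75th percentile shift, and Dhh A_64_P009132 to 0.019 without replicate 2 and 0.066 with only pairs 4 to 6. The r of Dhh with Gli1 turned to -0.099 with the 75th percentile shift. Leaving out 1 pair at a time gave 0.49 to 0.66 for it and -0.81 to -0.26 for Ptch1. With no replicate block, 81 probes in place of 3956 had an unadjusted p under 0.05, and 0 higher and 0 lower probes of the pathway lists did. With the replicate as a random block, 5 probes in place of 0 passed the adjusted threshold; none was among the 7 Hedgehog probes tested. The count of higher list probes was 5 with a random block, with normexp and with only pairs 4 to 6, against 3. The count of lower ones was 2 with normexp and 1 to 2 without 1 replicate, against 1. Of all probes, 16.8% reached the unadjusted threshold in either direction with a random block, 18.1% with normexp and 14% with only pairs 4 to 6. Without 1 replicate, 11.8% to 17.5% of all probes did. The causes were not tested. Setting surrogate values to missing and using only pairs 4 to 6 were chosen after seeing the data. Signals near background limit Dhh, Gli1, Ihh and Gli2 A_44_P306728.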
